A study of Mus musculus with 3 samples.

Results

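The genes of 10 checkpoint and co-stimulation proteins were read in cultured mouse spleen cells that had been in contact with urine: Pdcd1, Ctla4, Lag3, Icos, Tnfrsf9, Tnfrsf4, Cd274, Cd80, Cd86 and Cd83. All 10 genes were on the array, through 19 non-control probes that carry their names, out of 56599 probes for 36609 gene names. Each probe was followed apart. The genes were not chosen by a threshold on their values, but they were chosen with earlier results of these data known. The cells came from the spleen of male MRL/MpJ mice aged 6 months and spent 3 h in contact with 1 of 3 fluids, which were urine from MRL/MpJ-Faslpr/lpr donors (called lpr urine), MRL/MpJ urine and PBS. The lpr donors carry the Faslpr allele, which impairs the death receptor Fas, and this strain develops a lupus-like disease, whereas the cells of all 3 conditions had the same MRL/MpJ genotype. Per the labels, the urine of 6 male donors per strain, also aged 6 months, was pooled, so that each kind of urine is 1 pool. Both kinds of urine were passed through a 0.22 µm filter. The labels speak of a spleen and of spleens, and the number used was not settled from them. There was 1 array per condition, so no difference below has a replicate check, and none has a p-value.

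T cells act on a first signal through their antigen receptor and a second one through co-stimulatory receptors, which bind ligands on antigen-presenting cells. Checkpoint receptors such as PD-1 and CTLA-4 give the opposite signal and limit the response. Most of these genes are switched on by activation, through NFAT, NF-kB and AP-1 in T cells and through NF-kB in B cells and dendritic cells, and spleen holds all of these cells.

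The array reads each gene through 60-base probes, and in 3 of the genes shown here the probes gave unlike values, the reason for which was not tested. The stretches of Lag3, Cd80 and Cd86 are shown because probes of 1 gene gave different values, and that of Tnfrsf4 because it holds the letters of a poly(A) signal. Sequences are given 5′ to 3′ as deposited, some as 30 bases of the probe, with the letters AATAAA in capitals. They are numbered 5′ to 3′ along the gene, at mm9 positions of the files.
Lag3 probe 1: gcctgtctacaactcaccgcgtcatttttt
Lag3 probe 2: ggagaaaacagttgctactgagaagatttt
Cd80 probe 1: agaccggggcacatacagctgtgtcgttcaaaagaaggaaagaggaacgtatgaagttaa
Cd80 probe 2: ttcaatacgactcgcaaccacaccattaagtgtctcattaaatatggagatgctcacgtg
Cd80 probe 3: aaaggagaggtgcctagtcttactgcaact
Cd80 probe 4: gattcctggaagtggcttttgctctttgga
Cd86 probe 1: tggatgggtcaaacataactagaatcgtag
Cd86 probe 2: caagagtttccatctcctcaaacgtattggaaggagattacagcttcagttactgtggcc
Cd86 probe 3: ccaggagacatcactagaatccaaccaaca
Cd86 probe 4: agagtggatttcAATAAAgttttcttgaat
Tnfrsf4 probe: tgcctggtggtgctcctAATAAAcatgcta

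Lag3 probe 1 lies at chr6:124859333-124859392 and probe 2 within chr6:124854570-124854866, both on the minus strand. The 4 Cd80 probes lie on the plus strand at chr16:38474174-38474233, chr16:38479343-38479402, chr16:38486772-38486831 and chr16:38495628-38495688. The 4 Cd86 probes lie on the minus strand at chr16:36660860-36660919, chr16:36615381-36615440, chr16:36604506-36604565 and chr16:36603961-36604020. The Tnfrsf4 probe lies at chr4:155390639-155390698 on the plus strand. The letters AATAAA were in 2 of the 19 probes, Cd86 probe 4 and the Tnfrsf4 probe. No mm9 annotation was used here, so exons and untranslated regions were not assigned to the probes.

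Promoters are shown for Pdcd1 and for one start of Tnfrsf9, a pair of T cell receptors that were both far lower with urine. They are the 250 bases before the start in RefSeq (GRCm38.p6), whose table held 7 promoters for 6 of the 10 genes. Capitals mark matches to 3 motifs searched on both strands: NF-kB by name, AP-1 as TGANTCA, and TTTCC, the core of NFAT sites.
Pdcd1, chr1:94052554-94052803, minus strand: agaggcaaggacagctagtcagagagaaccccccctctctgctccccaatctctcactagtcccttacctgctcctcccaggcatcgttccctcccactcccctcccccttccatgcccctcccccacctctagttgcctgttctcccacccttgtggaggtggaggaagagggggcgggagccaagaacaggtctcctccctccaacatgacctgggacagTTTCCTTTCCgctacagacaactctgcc
Tnfrsf9 start 2, chr4:150927749-150927998, plus strand: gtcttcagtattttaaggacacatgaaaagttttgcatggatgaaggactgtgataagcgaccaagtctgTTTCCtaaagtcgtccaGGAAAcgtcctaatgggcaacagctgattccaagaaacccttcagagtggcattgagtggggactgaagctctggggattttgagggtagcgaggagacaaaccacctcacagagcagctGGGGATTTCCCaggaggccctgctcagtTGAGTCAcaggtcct

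The Pdcd1 window held TTTCC 28 and 23 bases before the start. In Tnfrsf9 start 2, the NF-kB match began 43 bases before the start and contained a TTTCC, and the AP-1 match began 15 bases before it. Of the 7 promoters of these genes, this was the only 1 with the NF-kB motif, and the other start of Tnfrsf9 held neither NF-kB nor AP-1. AP-1 was also found before Cd80, and TTTCC in 6 of the 7. Among the promoters of all 32851 starts in the table, 3.90% held the NF-kB motif, 6.75% the AP-1 motif and 55.6% TTTCC. A match describes the letters of the window and shows no binding.

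Before scaling, the 75th percentile of processed signal was 75.7 intensity units with lpr urine, 86.6 with MRL/MpJ urine and 157.5 with PBS. Well above background, by the scanner software's own call, were 55.3%, 56.4% and 59.0% of probes on the arrays of lpr urine, MRL/MpJ urine and PBS. All 3 arrays were on 1 slide and in 1 scan, and no member probe was saturated. A log2 difference below is the difference of log2 processed signals, each minus its array's 75th percentile, and signals are given unscaled. The software's own error of a member's signal had a median of 10.3%, 10.2% and 10.0% of the signal with lpr urine, MRL/MpJ urine and PBS, and reached 25.8%. It gives a log2 difference an error of 0.20 to 0.48, which covers the spot and not the well or the animal. Both comparisons with PBS use the same PBS array, so they are not independent of each other.

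Most of the 10 genes were lower with either urine than with PBS, and lpr urine and MRL/MpJ urine gave nearly the same values. With lpr urine, 16 of 19 probes were at least 2-fold lower than with PBS, where 13.2% of all probes measured on both arrays were, and 2 were at least 2-fold higher, where 16.9% of all probes were. With MRL/MpJ urine, 15 of 18 measured probes were at least 2-fold lower, against 12.4% of all probes, and 3 were higher, against 15.5%. The median log2 difference of the probes was -2.30 with lpr urine and -2.22 with MRL/MpJ urine, while the median over all measured probes was 0.08 and 0.06. Because the genes were chosen with earlier results of these data known, these shares describe the members and test nothing. In 8 genes every measured probe was lower with both urines. Lag3 was higher on both of its probes, and the probes of Cd80 went in both directions.

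**Figure D1:**
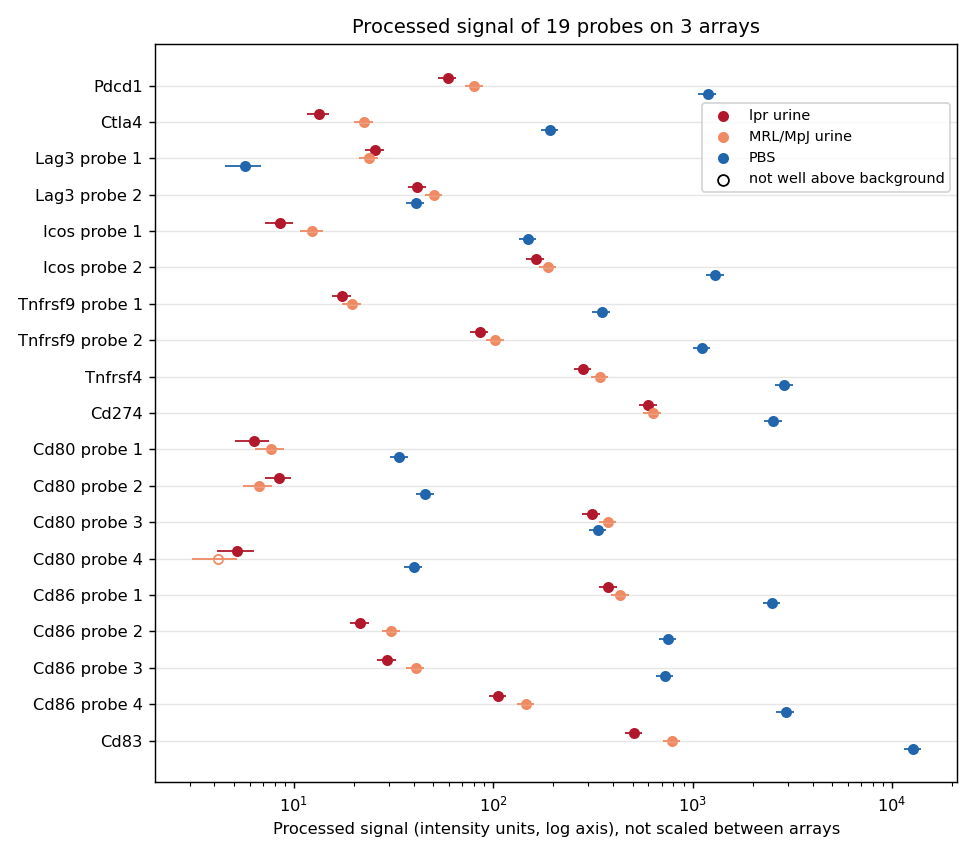
Processed signal (intensity units, log axis, not scaled between arrays) of the 19 probes on the arrays of lpr urine, MRL/MpJ urine and PBS. Points are single arrays, bars are the software's own error, and an open point is not well above background. The urine points lie together and left of PBS in most rows, while Lag3 probe 1 lies right of PBS (25.4 with lpr urine and 23.9 with MRL/MpJ urine against 5.68 with PBS) and Lag3 probe 2 and Cd80 probe 3 lie near PBS.

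Among the inhibitory receptors of T cells, Pdcd1 and Ctla4 were lower with urine. Pdcd1, which encodes PD-1, read 59.0 intensity units with lpr urine, 80.4 with MRL/MpJ urine and 1186 with PBS (probe at chr1:95935064-95935123). This is 9.66-fold lower with lpr urine and 8.12-fold lower with MRL/MpJ urine after scaling (log2 differences -3.27 and -3.02). Of all measured probes, 0.222% had a lower difference with lpr urine and 0.320% with MRL/MpJ urine. Ctla4, whose protein binds CD80 and CD86 in competition with CD28, read 13.4 with lpr urine, 22.4 with MRL/MpJ urine and 192 with PBS (chr1:60971801-60971860). It was 6.91-fold and 4.71-fold lower with lpr and MRL/MpJ urine (log2 differences -2.79 and -2.24). Under normexp background correction, an alternative that shrinks differences of dim probes, the log2 differences were -2.73 and -2.59 for Pdcd1 and -1.13 and -1.04 for Ctla4, so both stayed lower and the size for Ctla4 depends on the correction.

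Lag3, an inhibitory receptor that binds MHC class II, was the exception among these receptors. Its probe 1 read 25.4 intensity units with lpr urine, 23.9 with MRL/MpJ urine and 5.68 with PBS, an array on which the dimmest probe with that call read 4.47. The log2 differences were 3.22 and 2.94, but with the normexp background correction they were 1.09 and 0.94. Probe 2 read 41.6 with lpr urine, 50.4 with MRL/MpJ urine and 40.8 with PBS, so its signal was close on the 3 arrays before scaling. After scaling it was 1.08 and 1.17 higher on the log2 scale, which became 0.09 and 0.26 when the arrays were scaled by spike-in controls. Whether Lag3 was 2-fold higher therefore rests on probe 1, which was near background with PBS, and on the scaling.

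All 5 probes of the co-stimulatory receptors Icos, Tnfrsf9 and Tnfrsf4 were lower with both urines. Tnfrsf9, which encodes 4-1BB, a receptor of the TNF receptor family that appears on activated T cells, was read by 2 probes. Probe 1 (chr4:150319101-150319160) read 17.4 intensity units with lpr urine, 19.6 with MRL/MpJ urine and 349 with PBS, and probe 2 (chr4:150320145-150320204) read 85.3 with lpr urine, 102 with MRL/MpJ urine and 1115 with PBS. The log2 differences of probe 1 were -3.26 and -3.29 with lpr and MRL/MpJ urine, and those of probe 2 were -2.65 and -2.58. The 2 probes thus shared their direction and differed in size by 0.61 with lpr urine and by 0.71 with MRL/MpJ urine on the log2 scale. Under normexp the log2 differences were -1.86 and -1.92 for probe 1 and -2.38 and -2.31 for probe 2. Which of the 2 probes was lower thus depends on the background correction.

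Icos, a relative of CD28 that supports T cell help to B cells, gave differences of unlike size on its 2 probes. Probe 1 (chr1:61052582-61052641) read 8.56 intensity units with lpr urine, 12.3 with MRL/MpJ urine and 149 with PBS, and its log2 differences were -3.06 and -2.74, which normexp took to -0.94 and -0.98, under 2-fold. Probe 2 (chr1:61057071-61057130) read 163 with lpr urine, 188 with MRL/MpJ urine and 1300 with PBS, and its log2 differences were -1.94 and -1.93. Tnfrsf4, which encodes OX40, a survival receptor of activated T cells, read 282 with lpr urine, 343 with MRL/MpJ urine and 2884 with PBS. It was 4.92-fold lower with lpr urine and 4.62-fold lower with MRL/MpJ urine (log2 differences -2.30 and -2.21).

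**Figure D2:**
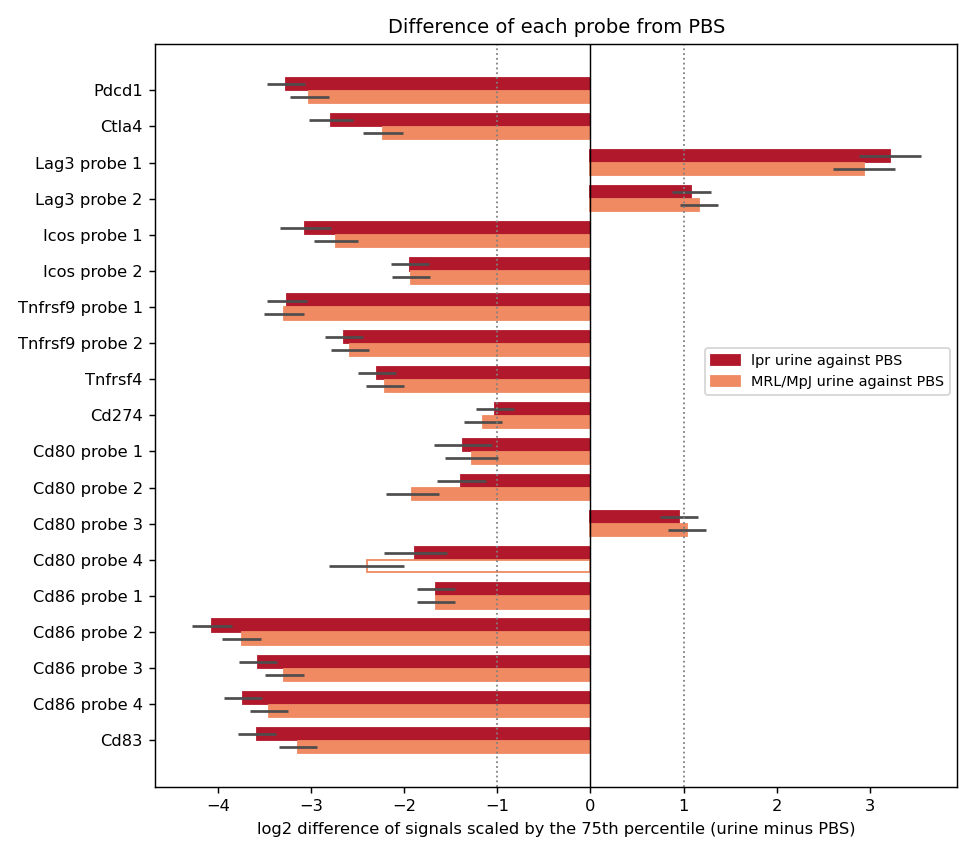
Log2 difference of scaled signals (urine minus PBS) of each probe, with lpr urine above MRL/MpJ urine. Lines on the bars are the software's own error, dotted lines mark 2-fold, and the open bar is Cd80 probe 4, not well above background after MRL/MpJ urine. Bars point to lower values in all rows but Lag3 probes 1 and 2 and Cd80 probe 3, whose higher values shrink under spike-in scaling (Lag3 probe 2 to 0.09 and 0.26, Cd80 probe 3 to -0.03 and 0.13).

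On the side of antigen-presenting cells, Cd83 and Cd86 were lower on every probe, Cd274 was about 2-fold lower, and the Cd80 probes were split. Cd83, a surface marker of mature dendritic cells and activated B cells, read 508 intensity units with lpr urine, 787 with MRL/MpJ urine and 12680 with PBS (chr13:43898276-43898335). It was 12.0-fold lower with lpr urine and 8.86-fold lower with MRL/MpJ urine (log2 differences -3.59 and -3.15). Cd274, which encodes the PD-1 ligand PD-L1, read 599 with lpr urine, 629 with MRL/MpJ urine and 2539 with PBS (chr19:29462363-29462422). Its log2 differences of -1.03 and -1.15 were the smallest among the lower probes and lay at the 2-fold threshold within the software's error.

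Cd86, a ligand of CD28 and CTLA-4 on B cells and dendritic cells, was lower on each of its 4 probes. Probe 1, the most 5′ one, read 378 intensity units with lpr urine, 434 with MRL/MpJ urine and 2487 with PBS. It is listed under another transcript record than probes 2, 3 and 4. Probe 2 read 21.5 with lpr urine, 30.8 with MRL/MpJ urine and 753 with PBS. Probe 3 read 29.3 with lpr urine, 40.8 with MRL/MpJ urine and 726 with PBS. The urine signals of these probes were close to each other and far under the PBS signal. Probe 4 read 106 with lpr urine, 146 with MRL/MpJ urine and 2922 with PBS. The log2 differences of probe 1 were -1.66 with both urines. Those of probes 2, 3 and 4 were -4.07, -3.57 and -3.73 with lpr urine and -3.75, -3.29 and -3.46 with MRL/MpJ urine. Probe 2 with lpr urine was thus 16.8-fold lower, the lowest of all member probes under 75th percentile scaling, but under normexp it differed by -2.66, less than Cd83 at -3.80.

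Cd80, the second ligand of CD28 and CTLA-4, had no single direction. Probe 1 read 6.28 intensity units with lpr urine, 7.68 with MRL/MpJ urine and 33.8 with PBS, and probe 2 read 8.39 with lpr urine, 6.67 with MRL/MpJ urine and 45.7 with PBS. Probe 4 read 5.21 with lpr urine and 40.0 with PBS, and on the array of MRL/MpJ urine it was not well above background, which makes it at least 4.93-fold lower there. Probe 3 read 311 with lpr urine, 376 with MRL/MpJ urine and 334 with PBS. The log2 differences were -1.37 and -1.28 for probe 1, -1.39 and -1.91 for probe 2, and 0.96 and 1.04 for probe 3, with lpr and MRL/MpJ urine. Probe 4 differed by -1.88 with lpr urine. Probe 4 is listed under another transcript record than probes 1, 2 and 3. Which probe reads the Cd80 transcript best was not determined. All 3 lower probes read between 4.15 and 45.7 intensity units on the 3 arrays, and under normexp correction they differed from PBS by -0.17 to 0.16.

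**Figure D3:**
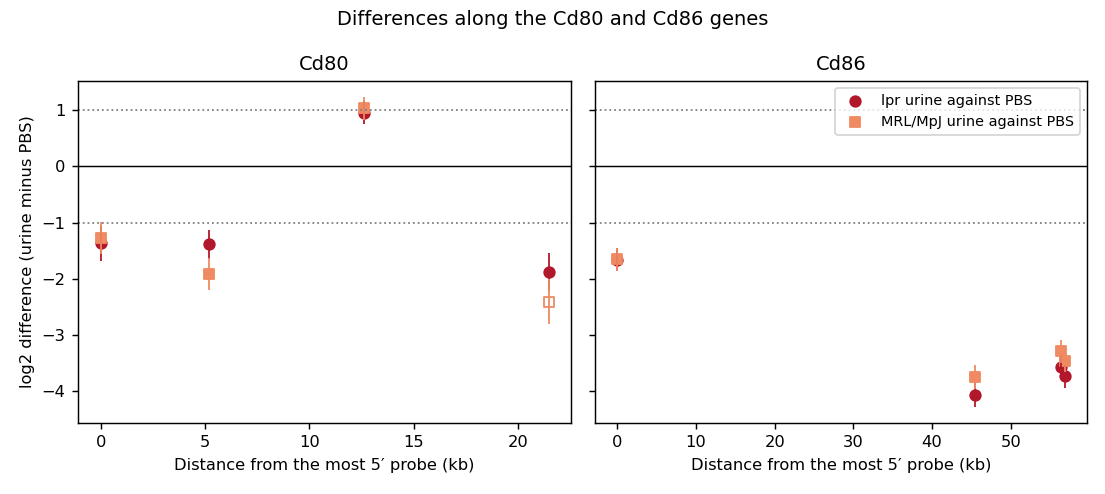
Log2 difference (urine minus PBS) of the probes of Cd80 and Cd86 by distance from the most 5′ probe of the gene, in kb, with the software's error as bars and an open square not well above background. Cd86 probes are all lower, the most 5′ one least (-1.66), while Cd80 probe 3 lies above 0 (0.96 and 1.04, or -0.03 and 0.13 under spike-in scaling) between lower probes. The most 5′ Cd86 probe is listed under another transcript record than the other Cd86 probes.

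Between the urines, no member probe was 2-fold apart. Of the 18 probes measured on both urine arrays, 0 were at least 2-fold higher with lpr urine than with MRL/MpJ urine, where 0.294% of all measured probes were, and 0 were lower, where 0.0719% were. The log2 differences of all 19 probes, lpr minus MRL/MpJ urine, lay between -0.55 (Ctla4) and 0.53 (Cd80 probe 2), with a median of -0.09 over the 18 measured. Ctla4 and Cd83 (-0.44) differed by more than 2 times the software's error, and the other 17 probes did not. Ctla4 was dim with both urines, and repeated spots at log2 signals below 5 gave a log2 difference an SD of 0.38 to 0.40 there. Under normexp Ctla4 differed from PBS by -1.13 with lpr urine and -1.04 with MRL/MpJ urine, so the urines then lay close. Cd83 was bright, at 508 intensity units with lpr urine and 787 with MRL/MpJ urine. It differed from PBS by -3.80 and -3.33 under normexp and by -4.57 and -4.05 under spike-in scaling, so its gap between the urines remained. Before scaling, 16 of 19 signals were lower with lpr urine, and after scaling 14 of 19 log2 differences were below 0. With 1 array each, these sizes cannot be set against the spread between wells.

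The direction of most members did not turn with the scaling. With lpr urine, 11 of 19 probes were at least 2-fold lower than PBS under all 5 ways of scaling or background correction, and with MRL/MpJ urine 12 of 18 were. They include Pdcd1, Ctla4, Tnfrsf9, Tnfrsf4, Cd86 and Cd83 on every probe and Icos probe 2. Lag3 probe 1 was at least 2-fold higher under all 5 with lpr urine and under 4 with MRL/MpJ urine. Spike-in scaling, which takes 8 control transcripts added in fixed amounts as equal, lowered every difference from PBS by 0.99 with lpr urine and by 0.90 with MRL/MpJ urine. Under it the median over all measured probes was -0.91 and -0.85, so the members' values are to be read against that shift. Fewer cells of a type and less RNA per cell cannot be told apart in such bulk samples.

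**Figure D4:**
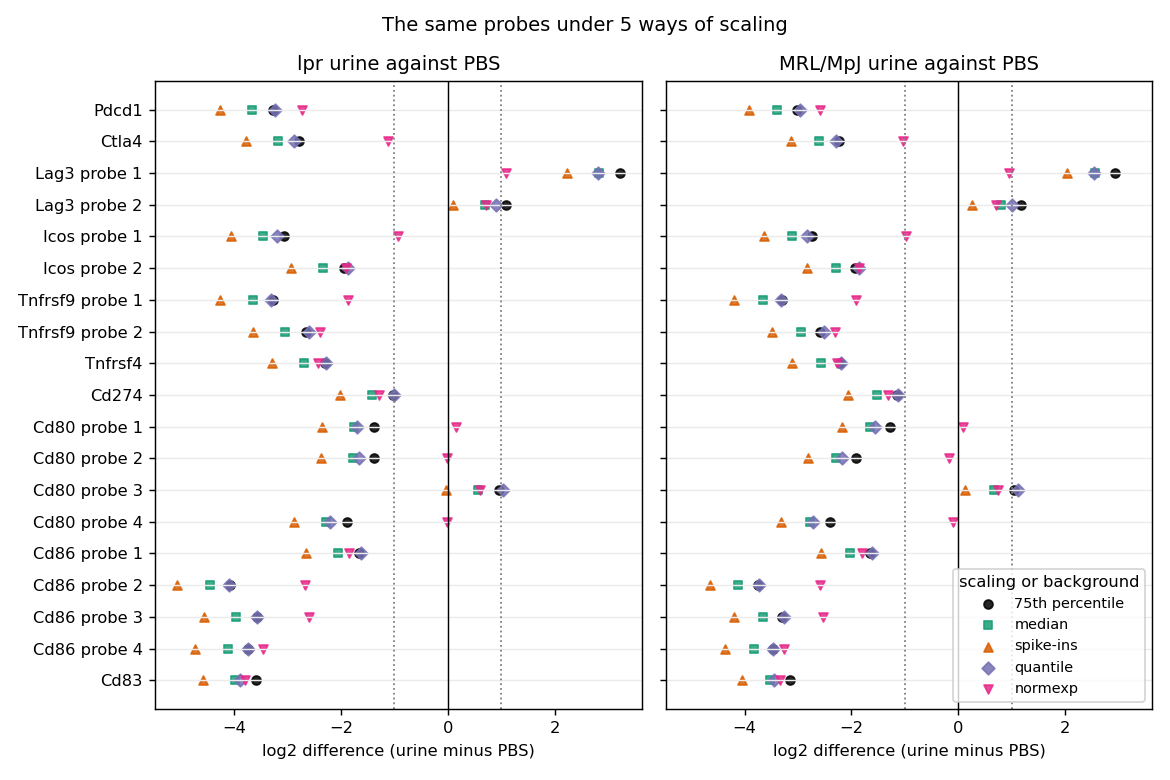
Log2 difference (urine minus PBS) of the 19 probes under scaling by the 75th percentile, the median or spike-ins, quantile normalization, and normexp background correction. Dotted lines mark 2-fold. Pdcd1, Tnfrsf9, Tnfrsf4, Cd86 and Cd83 lie left of the 2-fold line under all 5, Lag3 probe 2 and Cd80 probe 3 move toward 0 under spike-ins, and the dim Cd80 probes 1, 2 and 4 lie near 0 under normexp.

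The direct partners of the 10 genes were read from 1 probe per gene. Cd28, the main co-stimulatory receptor of resting T cells, read 290 intensity units with lpr urine, 342 with MRL/MpJ urine and 1945 with PBS (log2 differences -1.69 and -1.65). Pdcd1lg2, which encodes the second PD-1 ligand, read 39.1 with lpr urine, 55.1 with MRL/MpJ urine and 406 with PBS (-2.32 and -2.02). Both were thus lower with urine. Icosl, the ICOS ligand, read 96.3 with lpr urine, 123 with MRL/MpJ urine and 86.6 with PBS, with log2 differences of 1.21 and 1.37, which were 0.22 and 0.46 under spike-in scaling. Tnfsf9, the 4-1BB ligand, read 83.2 with lpr urine, 81.2 with MRL/MpJ urine and 137 with PBS (0.34 and 0.11, or -0.65 and -0.79 under spike-in scaling). Tnfsf4, the OX40 ligand, was well above background with PBS alone, where it read 16.5, and it was at least 1.79-fold lower with lpr urine and at least 2.03-fold lower with MRL/MpJ urine. Under normexp its log2 differences were 0.33 and 0.22, so its direction depends on the background correction.

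A list of 41 other receptors and ligands of these pathways was measured for 32 genes on both arrays of each comparison with PBS. With lpr urine 8 were at least 2-fold lower, beside 13.0% of all named genes, and 5 higher, beside 16.1%. With MRL/MpJ urine 8 were lower, beside 12.0% of named genes, and 5 higher, beside 14.9%. The median log2 difference of the list was -0.19 with lpr urine and -0.07 with MRL/MpJ urine, against 0.03 and 0.02 over all named genes. The lowest besides Pdcd1lg2 and Cd28 were Havcr2, which encodes the inhibitory receptor TIM-3 (-2.37 and -2.08), and Pvr, the ligand of TIGIT and CD226 (-2.15 and -2.11). Lgals3, which encodes the sugar-binding galectin-3, differed by -1.66 and -1.46, and Tigit, an inhibitory receptor, by -1.35 and -1.61. Under normexp Havcr2 differed by -0.58 and -0.62 and Tigit by -0.32 and -0.44, so neither was then 2-fold lower. The highest were Tnfsf14, which encodes LIGHT, a ligand of HVEM (1.91 and 1.63), and Tnfsf15, a ligand of the death-domain receptor DR3 (1.51 and 1.49). Under spike-in scaling these were 0.92 and 0.73 for Tnfsf14, and 0.52 and 0.59 for Tnfsf15. Cd96 and Cd244a, receptors of T and NK cells, were higher on the probe used (1.35 and 1.38 for Cd96, 1.20 and 1.30 for Cd244a), but other probes of each were lower, down to -1.73 and -1.89 for Cd96 and -1.15 and -1.23 for Cd244a. Cd160, an HVEM receptor, was well above background with urine alone, at least 3.75-fold higher with lpr urine, and with MRL/MpJ urine at least 3.77-fold. Under normexp its log2 differences were 0.84 and 0.78, under 2-fold.

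A list of 26 transcription factors and signalling genes of lymphocyte activation was measured in full. With lpr urine 9 were at least 2-fold lower, beside 13.0% of all named genes, and 5 higher, beside 16.1%. With MRL/MpJ urine 9 were lower, beside 12.0%, and 4 higher, beside 14.9%, so the shares of higher genes lay near those of all named genes. The medians were -0.59 and -0.61. Irf4, a factor induced by antigen receptors, read 166 intensity units with lpr urine, 183 with MRL/MpJ urine and 3070 with PBS (log2 differences -3.15 and -3.21). Rel, which encodes the NF-kB subunit c-Rel, read 654 with lpr urine, 676 with MRL/MpJ urine and 8180 with PBS (-2.59 and -2.74). Ikzf2, which encodes Helios (-2.32 and -2.17), and Cblb, a ubiquitin ligase that limits T cell activation (-2.20 and -2.10), were also among the lowest. Egr2 (-1.99 and -2.17) and Egr3 (-2.20 and -1.98) encode factors induced by the T cell receptor, and another Egr3 probe was higher by 2.54 with lpr urine. In the other direction, Nr4a3, an early-response nuclear receptor, read 496 with lpr urine, 485 with MRL/MpJ urine and 169 with PBS (2.61 and 2.38, or 1.62 and 1.48 under spike-in scaling). The lowest of its 3 probes differed by 0.80 and 0.69, under 2-fold. Batf3, an AP-1 family factor of dendritic cells and T cells, differed by 2.08 and 2.24, by 1.09 and 1.34 under spike-in scaling, and by 0.96 and 0.995 under normexp. Cd69, an early activation marker, differed by 1.75 and 1.82 on the probe used, with another at 0.16 and -0.41. Nfatc2, which encodes an NFAT factor, differed by 1.18 and 0.96 and Nr4a2 by 1.06 and 1.02, which spike-in scaling took to 0.19 and 0.05 for Nfatc2 and to 0.07 and 0.12 for Nr4a2. Between lpr urine and MRL/MpJ urine, 0 of 33 partner genes and 0 of 26 regulators were 2-fold apart, beside 0.239% of named genes that were higher with lpr urine and 0.0545% that were lower. Early activation genes thus had values in both directions. The share of higher ones was near that of all named genes, and the rise of Cd69, Nfatc2 and Nr4a2 depended on the probe or the scaling.

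**Figure D5:**
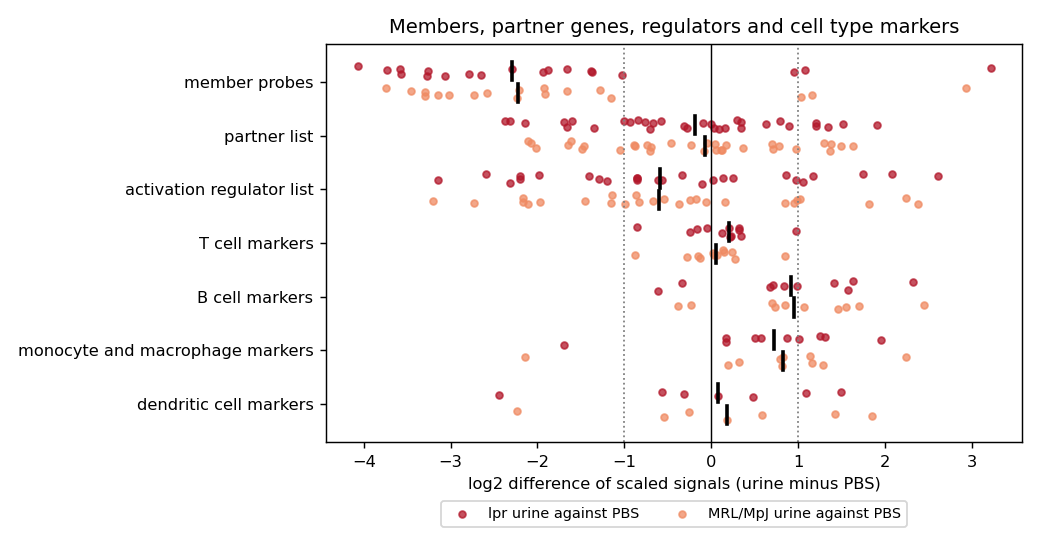
Log2 difference (urine minus PBS) of the member probes, of genes of the partner and activation regulator lists and of cell type markers, each dot a probe or gene measured on both arrays, with lpr urine above MRL/MpJ urine. Black lines are medians (-2.30 and -2.22 for member probes, 0.21 and 0.05 for T cell markers), and the values shift down by 0.99 and 0.90 under spike-in scaling.

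Markers of the cells that carry these genes were measured on the same arrays. All 12 T cell markers were measured, among them Cd3e, and 0 were 2-fold apart in either direction with either urine (median log2 difference 0.21 and 0.05). Their summed scaled signal was 371 with lpr urine, 348 with MRL/MpJ urine and 335 with PBS, as multiples of each array's 75th percentile. Of all named genes, 16.1% were at least 2-fold higher and 13.0% lower with lpr urine, and 14.9% higher and 12.0% lower with MRL/MpJ urine. Of 10 B cell markers, 4 were higher with lpr urine and 5 with MRL/MpJ urine, and none was lower (summed 479, 501 and 246 with lpr urine, MRL/MpJ urine and PBS). Of 10 monocyte and macrophage markers, 4 were higher and 1, Cd14, was lower with each urine (summed 149 with lpr urine, 174 with MRL/MpJ urine and 79.1 with PBS). Of 8 dendritic cell markers 7 were measured, with 2 higher and 1 lower, Zbtb46, with each urine, and Xcr1 was not well above background on any array. Under normexp Zbtb46 differed by -0.17 and -0.27. The 2 higher ones then differed by 0.77 and 0.84 (Clec9a) and by 0.71 and 0.82 (Cd209a), so none of these was 2-fold apart. Of 7 neutrophil markers 3 were higher with each urine (summed 804 with lpr urine, 816 with MRL/MpJ urine and 419 with PBS), and their medians of 0.94 and 0.85 were both -0.05 under spike-in scaling. Of 7 NK cell markers 6 were measured and 1 was higher with each urine (medians 0.06 and 0.06). The other, Klrc1, was well above background with PBS alone, and at least 2.67-fold lower with lpr urine and 3.04-fold with MRL/MpJ urine. Under normexp its log2 differences were 0.24 and 0.12. Under spike-in scaling the medians over all 7 NK cell markers were -0.98 and -0.89. The 5 erythroid markers had medians of 0.72 and 0.55, -0.27 and -0.35 under spike-in scaling, and 0 were 2-fold apart. The median of T cell markers was -0.18 and -0.32 under median scaling and -0.78 and -0.85 under spike-in scaling, with lpr and MRL/MpJ urine. Spike-in scaling also took the median of B cell markers to -0.07 and 0.06 (0.92 and 0.96 before) and that of monocyte and macrophage markers to -0.26 and -0.08 (0.72 and 0.82 before). Under 75th percentile scaling neither the T cell nor the B cell list was lower as a group. The T cell median was below 0 under median scaling, spike-in scaling and normexp (-0.09 and -0.13 under normexp). The part of T and B cells in the members' values was not tested. Of 7 urinary tract epithelium markers, 2 were measured, and Upk1b, Upk2, Upk3a, Umod and Krt5 were not well above background on any array. Of those measured, Upk1a differed by -0.51 and -0.59, and Aqp2 by 1.21 with lpr urine, past 2-fold, and by 0.72 with MRL/MpJ urine, or 0.22 and -0.18 under spike-in scaling.

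Genes most like Pdcd1 and Cd83 were taken from 9442 genes measured on all 3 arrays, by the distance between their pairs of log2 differences from PBS, which is a likeness over 2 values that share the PBS array. Nearest to Pdcd1 were 2610005L07Rik, 4632427E13Rik, Spryd4, Plau and Utf1, at distances of 0.07 to 0.11. Spryd4 and Plau read 5.87 to 10.0 intensity units with urine. At log2 signals below 5, repeated spots on the urine arrays had a log2 SD of 0.27 to 0.29, so the order of such dim neighbours is not settled. Nearest to Cd83 were Slc15a3, Thbs1, Slc2a6, Gm16062 and Itga7, at 0.07 to 0.15. With lpr urine, Utf1, Slc15a3 and Gm16062 were dim too, at 15.2, 27.2 and 15.4 intensity units. All these distances were smaller than the software's error of a member's log2 difference, which was at least 0.20, so neither order is settled.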

How the data were processed

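RNA of cultured spleen cells was labelled from 0.05 µg with Cy3 and hybridised to 1-colour Agilent arrays, per the labels' protocols. The deposited processed signal is an intensity that Agilent Feature Extraction 12.0.3.1 wrote after subtracting background inside each array, without normalization between arrays, per the file headers. Flagged spots were dropped and repeated spots averaged, which left 56599 of 56605 probes. A level is the log2 processed signal less the 75th percentile of its own array. A probe counted as 2-fold apart only if well above background on both arrays, and a probe measured on 1 array got a bound. For the lists, 1 probe per gene was read: the one well above background on most arrays, then the brightest. Named were all members, direct partners and up to 5 genes each way per list, and, for likeness, genes of at least 100 units with PBS. Members and lists were chosen with earlier results of these data known. Symbols were checked against RefSeq (GRCm38.p6), which 44548 probes matched and which updated 26. Alternatives were median, spike-in (8 E1A probes) and quantile scaling and normexp (offset 50, limma 3.58.1, R 4.3.3). Scripts ran in Python 3.11.15. The scaling and the 2-fold call were tested on simulated arrays with low noise and few changed probes. That setting does not test dim probes or a shift of many probes. Repeated spots within an array gave a log2 difference an SD of 0.05 at log2 signals of 8 and above and of 0.33 to 0.40 below 5. No test across replicates was possible.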

Additional observations from a re-analysis of the deposited data

How the results depend on the processing

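Each value rests on 1 array per condition, and the software's error covers the spot alone, so wells, animals and urine pools contribute an unknown spread. No paired analysis was possible because each condition has 1 array. Low signal limits Cd80 probes 1, 2 and 4, Lag3 probe 1, Icos probe 1 and Ctla4. Tnfrsf9 probe 1 and Cd86 probes 2 and 3 were also dim with lpr urine. Normexp shrank their log2 differences from PBS with lpr urine to -1.86, -2.66 and -2.60, still past 2-fold. Member probes at least 2-fold higher than PBS with lpr urine numbered 2, and 1 under median scaling, spike-in scaling, normexp or 1 probe per gene. With MRL/MpJ urine they numbered 3, and 1 under median or spike-in scaling and 0 under normexp. Lower member probes numbered 16 with lpr urine and 15 with MRL/MpJ urine, and with 1 probe per gene 8 genes of 10 were lower with each. Partner and regulator genes higher with lpr urine numbered 10, and 5 under median scaling, 2 under spike-in scaling, 3 under normexp and 6 when each gene's probes were averaged. Those lower numbered 17, and 26 and 33 under median and spike-in scaling. With MRL/MpJ urine 9 were higher, and 2 under spike-in scaling and 3 under normexp, while 17 were lower, and 26 and 32 under median and spike-in scaling. Cd80 probe 1 turned to 0.16 with lpr urine and 0.083 with MRL/MpJ urine under normexp. The cause was not tested, except that the spike-in and median scalings shift all probes alike. Counts between the urines were 0 under every alternative run.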
